A study of Mus musculus with 2 samples.

Results

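The genes described here encode the cytosolic ribosomal proteins of the mouse, chosen by symbol as Rps or Rpl followed by a number, a, or p0 to p2 and an optional closing letter (Rps27l, Rpl10a, Rps4x), without symbols that carry -ps. The annotation held 83 such genes, of which 82 were listed in at least 1 of the deposited tables, out of 27435 genes listed in any of them. The tables of the 10% and the 90% aliquot listed 81 and 82 members of 20830 and 26997 genes, and the table of long-read isoforms listed 78 members of 12032 genes. The members lie on 19 chromosomes. Their symbols do not all mark coding genes, since the annotation types Rpl6l and Rpl32l as processed pseudogenes and Rps4l as a transcribed processed pseudogene.

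The cells were muscle stem cells (satellite cells) of Pax7CreERT2;R26RYFP mice on a C57BL6 background, 3 months old, in which tamoxifen given daily for 5 days switches on YFP in cells with an active Pax7 promoter. Muscle was collected 2 weeks after tamoxifen, quiescent cells came from uninjured hindlimb muscle and activated cells from muscle 72 h after injection of 1.2% barium chloride, and both were sorted on YFP. Both kinds entered 1 droplet capture, whose droplets were split into an aliquot of 10%, sequenced with short and with nanopore long reads, and an aliquot of 90%, sequenced with short reads. The labels say neither which barcode was quiescent or activated nor how many mice were used, and each aliquot is 1 sample, so no difference between barcodes was tested, and each interval given covers counting error only. Sets of barcodes were compared within each aliquot. Low barcodes held 3000 to 15000 short-read UMIs (unique molecular identifiers, each tagging 1 captured molecule) and none of Rrm2, Top2a or Cdk1, genes of dividing cells, and deep barcodes held at least 20000 UMIs. The sets are defined by depth and, for low barcodes alone, by the absence of these genes, not by a label of cell state. That filter left out 21 of 178 barcodes in the 10% aliquot and 148 of 1391 in the 90% aliquot.

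A ribosome is built from ribosomal RNA and proteins of both its subunits, the Rps proteins of the small subunit that reads the mRNA and the Rpl proteins of the large subunit that joins amino acids. Many ribosomal protein mRNAs start with a C followed by a run of pyrimidines, the 5′ terminal oligopyrimidine (TOP) tract, through which their translation is set together by mTOR signalling. The family has left many processed pseudogenes, intronless copies of its mRNAs, in mammalian genomes. Satellite cells at rest are small and make little protein, and they enlarge and raise ribosome production when injury activates them.

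The long reads carry the start of the mRNA, but by the paper's methods isoform ends can be corrected to annotated ones. The end used below for Rps24, for example, is also the start of the annotated Rps24-202. With that limit, the ends of isoforms that had no reference transcript name were compared with the TOP tract. For 73 members such an end was found, for 66 of them the bases around it were known from Gencode transcripts or RefSeq start windows of GRCm38, and 36 of the 66 (54.5%) began exactly with C and at least 4 more pyrimidines. A start of this kind lay within 5 bases of the end in 61 members (92.4%). Among other genes the exact share was 163 of 5505 (2.96%) and the share within 5 bases 1029 of 5505 (18.7%). At the annotated RefSeq start sites the motif opened 14 of 73 member sites (19.2%) and 818 of 32544 sites of all genes (2.51%). The most used such end of members that recur below is shown with 10 bases before it and 20 bases from it, on the gene's own strand, with the pyrimidine run at the end in capitals. Rps24 and Rplp0 begin with the motif, Rps19 and Rpl13a begin with T inside the run, 1 or more bases after its C, Rpl41 has a run too short to count, and Rpl10a ends its run after 1 base.
Rps24, chr14:24490708-24490737, plus strand: gtgagcggtcCTCTTTTCCTCCTCTCCagc
Rplp0, chr5:115559505-115559534, plus strand: tgcggcccgtCTCTCgccaggcgtcctcgt
Rpl5, chr5:107900562-107900591, plus strand: tgactccggtCTTTTTCCCCCTTagcgcgg
Rps29, chr12:69159070-69159099, minus strand: ccgactcgttCCTTTCTCCTCgttgggcgt
Rpl13, chr8:123102404-123102433, plus strand: ggtgcccggtCCTTTCCgctcggccgttct
Rps19, chr7:24884626-24884655, plus strand: cgtcgttcccTTTCCCCTggctggcagcgc
Rpl13a, chr7:45128716-45128745, minus strand: gacctcctccTTTCCCaggcggctgccgaa
Rpl41, chr10:128549093-128549122, minus strand: tctccgccctCTCggtcttagcgccatctt
Rpl10a, chr17:28328581-28328610, plus strand: gccttctttcCggtttccgcggcagccgca
The run was 17 bases long in Rps24, 13 in Rpl5 and 11 in Rps29. The 5 members without the motif within 5 bases of their end were Rpl8, Rps9, Rplp1, Rpl26 and Rpl36a, named after their sequences were seen. Isoforms with a reference name, left out here, held 96.8% of the long-read UMIs of Rpl8, 98.2% of Rplp1, 97.6% of Rpl26 and 96.9% of Rpl36a. They held 98.5% in Rpl41, 93.7% in Rpl13a, 93.4% in Rpl13 and 91.7% in Rpl10a, but 59.2% in Rpl5 and 43.4% in Rplp0. The ends of such genes can thus describe a small part of their mRNA.

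The 10% aliquot held 6772259 UMIs in 1991 barcodes, the 90% aliquot 39044129 in 3001 and the long reads 8297203 in the 1991 barcodes of the first. Low and deep barcodes numbered 157 and 79 in the 10% aliquot, with medians of 6729 and 65499 UMIs, and 1243 and 606 in the 90% aliquot. The aliquots shared barcodes, though the paper describes a split of whole droplets, which would place each cell in 1 aliquot. Of the 1991 barcodes of the 10% aliquot, 634 were also listed in the 90% aliquot. All 263 shared barcodes of at least 3000 UMIs in both had their own barcode as the closest profile, and the others were not compared. Of 606 deep barcodes of the 90% aliquot, 207 were listed in the 10% aliquot, where 76 of 79 deep barcodes were deep in both. How the sharing arose was not tested. Values of the 90% aliquot are therefore given over the 1000 low and 399 deep barcodes not listed in the 10% aliquot, and removing the shared barcodes moved the log2 ratio of no tested member by more than 0.054. Summed markers of quiescent muscle stem cells stood at 1507 CPM (counts per 1000000 UMIs of a set of barcodes) in low and 210 in deep barcodes of the 10% aliquot, with a UMI for 12 of 12 markers in both, and those of activated cells at 1141 and 757 CPM, with 7 and 10 of 10. Myod1, an early activation gene in that second list, was at 1106 CPM in low and 185 CPM in deep barcodes. Short reads had Rrm2, Top2a and Cdk1 at 0 in low barcodes by definition. In long reads these genes were at 34.7, 10.1 and 10.8 CPM in low and at 345, 97.2 and 156 CPM in deep barcodes. Markers of other cell types were counted too, mostly higher in low barcodes, and their part in the results below was not tested. In the 10% aliquot immune markers (6 and 8 of 8 with a UMI) summed to 337 and 106 CPM, fibro-adipogenic markers (4 and 6 of 6) to 191 and 63.1 CPM, Schwann markers (4 and 3 of 4) to 76.3 and 1.37 CPM, myofibre markers (5 and 6 of 7 listed) to 67.3 and 40.6 CPM, endothelial markers (3 and 3 of 5) to 11.7 and 4.12 CPM, mural markers (1 and 2 of 3) to 0.897 and 0.588 CPM, and erythroid markers (0 and 2 of 2 listed) to 0 and 2.16 CPM. In the 90% aliquot immune markers (7 and 8 of 8) summed to 264 and 4.82 CPM and fibro-adipogenic markers (5 and 5 of 6) to 329 and 25.7 CPM, while the other lists lay between 1.19 and 102 CPM in low and between 0.866 and 63.9 CPM in deep barcodes.

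Ribosomal protein genes held 13.2% of the UMIs of low barcodes (95% exact binomial interval 13.2 to 13.3) and 12.7% of deep barcodes (12.7 to 12.8) in the 10% aliquot. In the 90% aliquot the shares were 12.6% and 12.1%. Both aliquots had a slightly higher share in low barcodes, by 0.506 and 0.455 points. The size of the gap depended on which genes and barcodes were counted. In the 10% aliquot it was 2.37 points with the named pseudogenes added (29.0% and 26.6%) and 0.287 points with low barcodes that hold UMIs of dividing cells kept. Over single barcodes of the 10% aliquot the median was 13.6% (quartiles 12.3 and 14.7) in low and 12.8% (12.0 and 13.4) in deep barcodes, so that the quartile ranges overlapped. The lowest and highest low barcodes stood at 0.971% and 18.1%, and the deep ones at 6.88% and 15.4%.

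Small subunit genes held 6.22% of the UMIs of low and 5.58% of deep barcodes in the 10% aliquot, and 5.86% and 5.19% in the 90% aliquot. Large subunit genes held 7.02% and 7.15%, and 6.70% and 6.92%. Low barcodes were higher for the small subunit and slightly lower for the large one in both aliquots. In the 10% aliquot that gap of the large subunit was smaller than the gap of Rpl41 (4331 and 8147 CPM) or Rplp1 (3177 and 4664 CPM) alone. Only Rpl41 was left out to see its part. Without Rpl41, the member with the most UMIs, a sum taken after seeing the data, large subunit genes held 6.59% and 6.34% in the 10% aliquot and 6.19% and 6.05% in the 90% aliquot, higher in low barcodes in both. The median log2 ratio over large subunit genes was 0.02 and 0.01, beside 0.07 and 0.03 over small subunit genes. With long reads the small subunit genes held 10.3% and 10.2% and the large subunit genes, Rpl41 included, 15.6% and 15.1%.

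The share depended on depth at the shallow end. In the 10% aliquot the members held 11.4% of the UMIs of the 1392 barcodes under 200 UMIs, 9.11% at 200 to 1000 UMIs and 10.1% at 1000 to 3000 UMIs. Between 3000 and 15000 UMIs, with or without genes of dividing cells, it was 13.0%, and at 40000 or more it was 12.8%. The 90% aliquot had 6.93%, 6.65%, 8.89%, 12.5% and 12.2% in the same ranges, shared barcodes included. The pooled shares of low barcodes with and without a Myod1 UMI went in opposite directions in the aliquots, at 13.4% (83 barcodes) and 13.0% (74) in the 10% aliquot and 12.5% (604) and 12.8% (639) in the 90% aliquot, shared barcodes included. The medians over barcodes were lower with a Myod1 UMI in both, at 13.5% and 13.7% in the 10% aliquot and 12.6% and 12.9% in the 90% aliquot. Mitochondrially encoded genes, whose share rises in damaged cells, held 0.883% and 0.881% of the UMIs of low and deep barcodes of the 10% aliquot and 1.37% and 1.26% in the 90% aliquot.

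**Figure D1:**
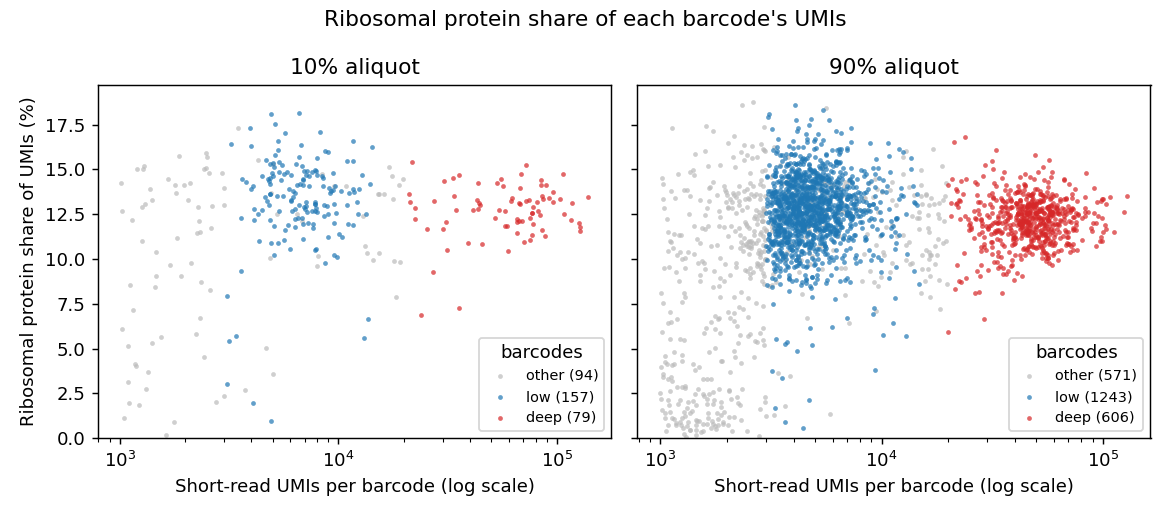
Share of each barcode's short-read UMIs held by the ribosomal protein genes, in percent, against its short-read UMIs on a log axis, for barcodes of at least 1000 UMIs of the 10% (left) and 90% (right) aliquot, with points of low, deep and other barcodes. Low and deep barcodes form clouds at the same height, with medians of 13.6% and 12.8% in the 10% aliquot, and shares under 5% are most frequent among shallow barcodes outside both sets.

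Single members were mostly level between the sets. Of 80 members with at least 50 UMIs in the 10% aliquot, 12 differed by at least 1.5-fold between low and deep barcodes, 5 higher and 7 lower in low barcodes, where 65.1% of all 7059 genes so counted did (21.7% higher and 43.4% lower). In the 90% aliquot 14 of 80 members did, 6 higher and 8 lower, against a background of 66.8% (24.6% higher and 42.2% lower), and with the shared barcodes kept 13 did, 5 higher and 8 lower, against 67% (24.9% higher and 42.1% lower). Past the limit in both aliquots, over barcodes not shared, were 5 members on the higher side, beside 17.9% of genes, and 5 on the lower side, beside 38.3%. With long reads 8 of 77 did, 4 higher and 4 lower, against 66.2% (26% higher and 40.2% lower). Among genes of at least 1000 UMIs, 10 of 71 members stood beside 54.1% of all genes in the 10% aliquot and 13 of 79 beside 63.2% in the 90% aliquot. The median log2 ratio of low to deep over members was 0.05, 0.01 and 0.02 in the 10% aliquot, the 90% aliquot and the long reads, and over all genes it was -0.36, -0.31 and -0.26. Within 1.2-fold stood 38, 40 and 41 members, and the share of all genes within that limit was not computed. The ratios of the 10% and 90% aliquots, over barcodes not shared, had Pearson's r of 0.95 across 80 members. Those of short and long reads of the same cDNA had 0.88 across 77. These points share 1 capture, and are genes, not replicates.

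**Figure D2:**
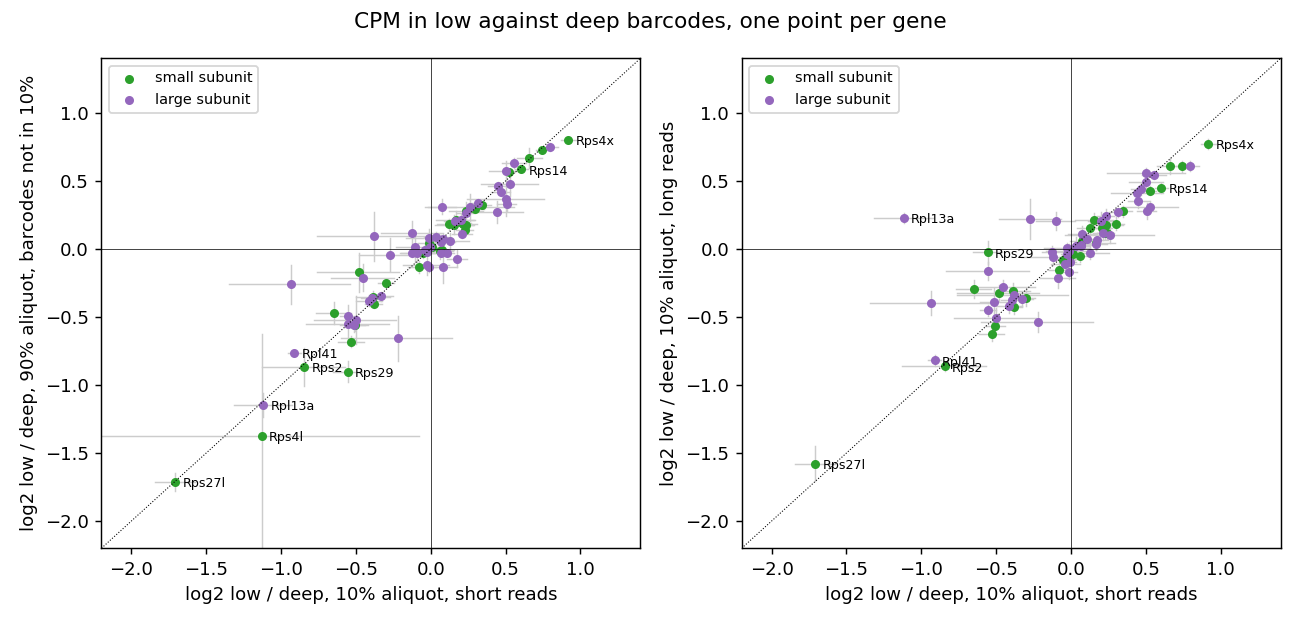
Log2 ratio of low to deep barcodes for each member, with the 10% aliquot (short reads) on the x axis of both panels against the 90% aliquot without shared barcodes and against the long reads. Members cluster near 0, Rps4x and Rps27l lie at the ends in both panels (0.92 and -1.71 in the 10% aliquot), and Rpl13a is below 0 with short reads (-1.12) and above 0 with long reads (0.23).

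Among small subunit genes, Rps4x, the X-linked gene of a core small subunit protein, was the most raised in low barcodes. It was at 4182 CPM in low and 2213 CPM in deep barcodes of the 10% aliquot, at 4635 and 2656 CPM in the 90% aliquot, and at 6414 and 3757 CPM in long reads. All 3 data sets put low barcodes higher, with log2 ratios of 0.92 (95% counting interval 0.87 to 0.97), 0.80 (0.78 to 0.83) and 0.77 (0.73 to 0.81). Over single barcodes of the 10% aliquot the quartiles of Rps4x were 3302 and 5197 CPM in low and 1948 and 2531 CPM in deep barcodes, and did not overlap.

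Rps19, whose loss causes Diamond-Blackfan anaemia in people, was at 5744 and 3435 CPM in the 10% aliquot, 5561 and 3365 CPM in the 90% aliquot and 5782 and 3798 CPM in long reads. Its log2 ratios were 0.74, 0.72 and 0.61, again higher in low barcodes throughout. Rps27, a zinc-binding protein of the small subunit, was at 1424 and 902 CPM, 441 and 278 CPM, and 2293 and 1502 CPM, with log2 ratios of 0.66, 0.67 and 0.61. Its ratio was close in all 3, while its short-read level was lower in the 90% aliquot. Rps14, another core protein of the small subunit, was at 4849 and 3188 CPM, 4639 and 3091 CPM, and 5324 and 3900 CPM. Its log2 ratios of 0.60 and 0.59 lay just past the 1.5-fold limit in both aliquots, and that of long reads, 0.45, lay under it.

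Apart from the paralogs described below, Rps2 and Rpsa were the small subunit genes that stood past the limit on the lower side in low barcodes in more than 1 data set. Rps2, a protein of the mRNA entry channel, was at 108 and 193 CPM in the 10% aliquot, 96.6 and 176 CPM in the 90% aliquot, and 5256 and 9563 CPM in long reads. Its levels were far apart between the methods, and its log2 ratio was -0.84, -0.87 and -0.86. Rpsa, which also acts as a laminin receptor at the cell surface, was at 1144 and 1652 CPM, 1231 and 1973 CPM, and 2830 and 4366 CPM, with log2 ratios of -0.53, -0.68 and -0.63. Rps29, at 873 and 1283 CPM in the 10% aliquot, 323 and 604 CPM in the 90% aliquot and 1023 and 1041 CPM in long reads, had log2 ratios of -0.55, -0.90 and -0.03. Long reads of the same cells put it level. Rps27a, which is made as a fusion with ubiquitin, was level at 1449 and 1376 CPM, 1731 and 1737 CPM, and 3837 and 3689 CPM.

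Among large subunit genes, Rpl41, the member with the most UMIs and the gene of the smallest ribosomal protein, was lower in low barcodes. It was at 4331 and 8147 CPM in the 10% aliquot, 5077 and 8619 CPM in the 90% aliquot and 3761 and 6637 CPM in long reads. The log2 ratios were -0.91 (-0.95 to -0.87), -0.76 (-0.78 to -0.74) and -0.82 (-0.86 to -0.78). The quartiles over barcodes of the 10% aliquot, 3439 and 4978 CPM in low and 6789 and 9471 CPM in deep barcodes, did not overlap. Rpl13, at 1448 and 984 CPM, 1837 and 1186 CPM, and 9034 and 6202 CPM, stood close to the limit at 0.56, 0.63 and 0.54. Rpl32 was level at 4249 and 4321 CPM, 4031 and 4095 CPM, and 4333 and 4452 CPM.

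Rpl13a, which carries small nucleolar RNAs in its introns, had opposite directions in short and long reads of the same barcodes. Short reads gave 213 and 461 CPM in the 10% aliquot and 246 and 545 CPM in the 90% aliquot, and long reads gave 5505 and 4699 CPM. The log2 ratios were -1.12 (-1.32 to -0.92) and -1.15 (-1.23 to -1.06) against 0.23 (0.19 to 0.27). When UMIs of the 1 pseudogene named after it were added, the short-read ratios were -0.63 and -0.40. Of 77 members 70 had the same sign in short and long reads of the 10% aliquot, a count not made over all genes. The other 7 were Rpl13a, Rpl38 (-0.27 and 0.22), Rpl36a (-0.10 and 0.21), Rpl6 (0.13 and -0.03), Rps16 (0.06 and -0.05), Rps18 (0.01 and -0.03) and Rpl3 (-0.03 and 0.01).

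The stalk of the large subunit, which recruits the translation factors, is made of Rplp0 and dimers of Rplp1 and Rplp2. Rplp0 was at 5296 and 5313 CPM in the 10% aliquot, 6075 and 6027 CPM in the 90% aliquot and 11364 and 12174 CPM in long reads. It was level between the sets, with log2 ratios of -0.00, 0.01 and -0.10. Rplp1 was at 3177 and 4664 CPM, 3572 and 5017 CPM, and 3752 and 5133 CPM, lower in low barcodes by less than the limit, at -0.55, -0.49 and -0.45. Rplp2 stood at 3268 and 3301 CPM, 1827 and 2007 CPM, and 3031 and 3418 CPM, with ratios of -0.01, -0.14 and -0.17. The 3 stalk genes therefore did not share 1 ratio. The 5S particle, whose proteins Rpl5 and Rpl11 bind Mdm2 when ribosome assembly is disturbed, was lower in low barcodes by varying amounts. Rpl5 was at 52.9 and 101 CPM, 98.2 and 118 CPM, and 951 and 1251 CPM, with ratios of -0.93 (-1.35 to -0.54), -0.26 (-0.40 to -0.12) and -0.40 (-0.48 to -0.31). Rpl11 was at 195 and 266 CPM, 200 and 231 CPM, and 3003 and 3637 CPM, with -0.45, -0.21 and -0.28. Rpl5 had the largest gap of any tested member between the aliquots, 0.67 on the log2 scale.

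Rps27l, and Rps4l in pooled counts of few UMIs, went the opposite way to their partners. Rpl6l and Rpl32l, with log2 ratios of 0.08 and 0.08 in the 10% aliquot, were level like Rpl6 (0.13) and Rpl32 (-0.02). Rps27l, a p53-responsive copy of Rps27, was the lowest of all tested members in low barcodes, at 429 and 1401 CPM in the 10% aliquot, 398 and 1304 CPM in the 90% aliquot and 386 and 1150 CPM in long reads. Its log2 ratios were -1.71 (-1.84 to -1.57), -1.71 (-1.78 to -1.65) and -1.58 (-1.71 to -1.45), opposite in sign to those of Rps27 in all 3. At least 1 UMI of Rps27l was found in 74.5% of the low and all of the 79 deep barcodes of the 10% aliquot. After each barcode was thinned to 3000 UMIs the shares were 56.1% (exact binomial interval 47.9 to 64.0) and 92.4% (84.2 to 97.2), and 58.2% and 95.4% in the 90% aliquot with shared barcodes. Rps4l, the transcribed pseudogene beside Rps4x by name, had 8 and 80 UMIs in low and deep barcodes of the 10% aliquot. These are 7.18 and 15.7 CPM, a log2 ratio of -1.13 (-2.39 to -0.08), beside 3.18 and 8.23 CPM in the 90% aliquot. Its pooled level was thus lower in low barcodes while that of Rps4x was higher. The 80 UMIs lay in 19 of 79 deep barcodes. After thinning to 3000 UMIs, 2.55% (0.698 to 6.39) of low and 6.33% (2.09 to 14.2) of deep barcodes held one, and these intervals overlap. Rpl39, of the peptide exit tunnel, was level at 1335 and 1302 CPM. Its paralog Rpl39l, known from testis, had 0 UMIs in the 157 low barcodes, which by the limit of 3 counts allows up to 1.91% of such barcodes to hold a UMI of it at this depth, and 11 UMIs in 1 deep barcode. That barcode also held an Rpl39l UMI in the 90% aliquot, and it held all 14 long-read UMIs of the gene. Rpl3l, the striated muscle paralog of Rpl3, was listed only in the 90% aliquot, with 2 UMIs in low and 6 in deep barcodes, shared barcodes included. Rpl3 itself was level at 380 and 387 CPM. Rpl10l was the member listed in none of the deposited tables, while Rpl10 was at 275 and 191 CPM.

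Other genes of the translation apparatus were compared as lists. Of 7 ribosomal protein genes with symbols outside the rule, 1 was higher and 2 were lower past 1.5-fold in the 10% aliquot, and 1 and 0 in the 90% aliquot. The higher one was Rps27rt, a retrogene copy of Rps27, at 4224 and 2485 CPM and at 2734 and 1679 CPM. Short reads of near-identical copies such as this pair could be split between the genes by the counting, which was not tested. Rpl36al, a copy of Rpl36a, was lower in the 10% aliquot at 116 and 180 CPM. Of 16 other translation genes with a TOP tract, 1 was higher and 5 were lower in each aliquot, with median log2 ratios of 0.01 and -0.11. Npm1, a nucleolar chaperone, was the lowest of them at 589 and 1679 CPM and at 588 and 2189 CPM, while Eef2, the translocation factor, was at 1293 and 882 CPM and at 1388 and 1008 CPM. Of 20 ribosome assembly factors, 5 were higher and 8 lower in the 10% aliquot, and 3 and 9 in the 90% aliquot, with medians of -0.41 and -0.37. Sbds, which helps release a blocking factor from new large subunits, was at 127 and 41.6 CPM and at 122 and 43.7 CPM. Bop1, of large subunit assembly, was at 9.87 and 29.0 CPM and at 11.3 and 34.7 CPM. Of 13 mitochondrially encoded genes, 0 passed the limit in the 10% aliquot, and 1 was higher and 1 lower in the 90% aliquot. The same limit was passed by 65.1% and 66.8% of all genes, as above.

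Long reads gave the members a larger part of the mRNA than short reads did in the same barcodes. The share was 25.9% (25.8 to 26.0) with long reads beside 13.2% with short reads in low barcodes, and 25.4% beside 12.7% in deep barcodes. Both methods read the same cDNA, so the difference lies between the methods. The short-read tables carried a further 15.8% and 13.9% of their UMIs on genes named as pseudogenes of members, where the long reads carried 0.0749% and 0.0794%. Of 251 such pseudogenes listed with short reads, 12 had a long-read UMI. Members and named pseudogenes together came to 29.0% and 26.6% with short reads and to 26.0% and 25.4% with long reads. How short reads that match a gene and its copies were assigned is not given in the sources used here.

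Gene by gene, with levels taken within the genes both methods list, 29 of 77 members differed by at least 2-fold between long and short reads, 24 higher and 5 lower with long reads, beside 18% of all 8671 genes (10.8% higher and 7.21% lower). The count depends on the totals and on pseudogenes. With every gene in the totals 39 members were higher and 0 lower, and when UMIs of the pseudogenes named after a member were added to it, 15 were higher and 10 lower. This change of totals alone raises the log2 ratio of each gene by the same amount, for Rpl26 from 0.00 to 0.77. No share of all genes was computed with these totals. Within the genes both methods list, the median log2 ratio was 0.34 over members and 0.30 over all genes. The highest ratios belonged to Rps2, at 8597 CPM with long and 304 CPM with short reads (28.3-fold), Rpl17, at 4136 and 188 CPM (22.0-fold), Rpl12, at 2295 and 140 CPM (16.4-fold), Rpl24, at 2213 and 160 CPM (13.8-fold), and Rpl7a, at 1709 and 127 CPM (13.5-fold). The lowest belonged to Rps21, at 1018 and 3321 CPM, Rpl22, at 778 and 2225 CPM, Rps26, at 2321 and 5596 CPM, Rps27l, at 977 and 2094 CPM, and Rpl41, at 5992 and 12736 CPM.

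The ratio went with the number of named pseudogenes. With every gene in the totals, the median log2 ratio of long to short reads was 0.34 for the 18 members without a named pseudogene, 1.04 for the 36 with 1 to 3 and 1.65 for the 23 with 4 to 24. When the pseudogenes' UMIs were added to their member these medians became 0.34, 0.00 and -0.59. The summed pseudogenes held 95.4% of the short-read UMIs of Rps2 and its 8 copies, 98.5% of those of Rpl17 and its 8, 96.8% of those of Rpl31 and its 18, and 96.8% of those of Rps12 and its 24. On this scale Rps2 went from 48.2-fold to 2.28-fold and Rpl17 from 37.4-fold to 0.577-fold. Rpl24, Rpl11 and Rpl6, with 0 named pseudogenes, were at 23.6-fold, 13.8-fold and 6.60-fold on the same scale. Rpl12, with 2, went from 28.0-fold to 21.4-fold. Named pseudogenes are those whose symbol carries -ps. Copies under any other symbol were not added, so a count of 0 does not show that a gene has no copies. Rpl6l, Rpl32l and Rps4l do not carry it, so they were not added to Rpl6, Rpl32 and Rps4x. The short-read level of Rpl6 on this scale, without Rpl6l, was 523 CPM. Over all 77 members the median log2 ratio went from 1.10 to -0.01, and its SD over members from 1.55 to 1.35. The pseudogenes counted only by short reads include 3 members. Rpl6l was at 1800 and 1703 CPM in low and deep barcodes, Rpl32l at 955 and 902 CPM and Rps4l at 7.18 and 15.7 CPM, and none of these had long-read UMIs here. Rpl3l had none either.

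**Figure D3:**
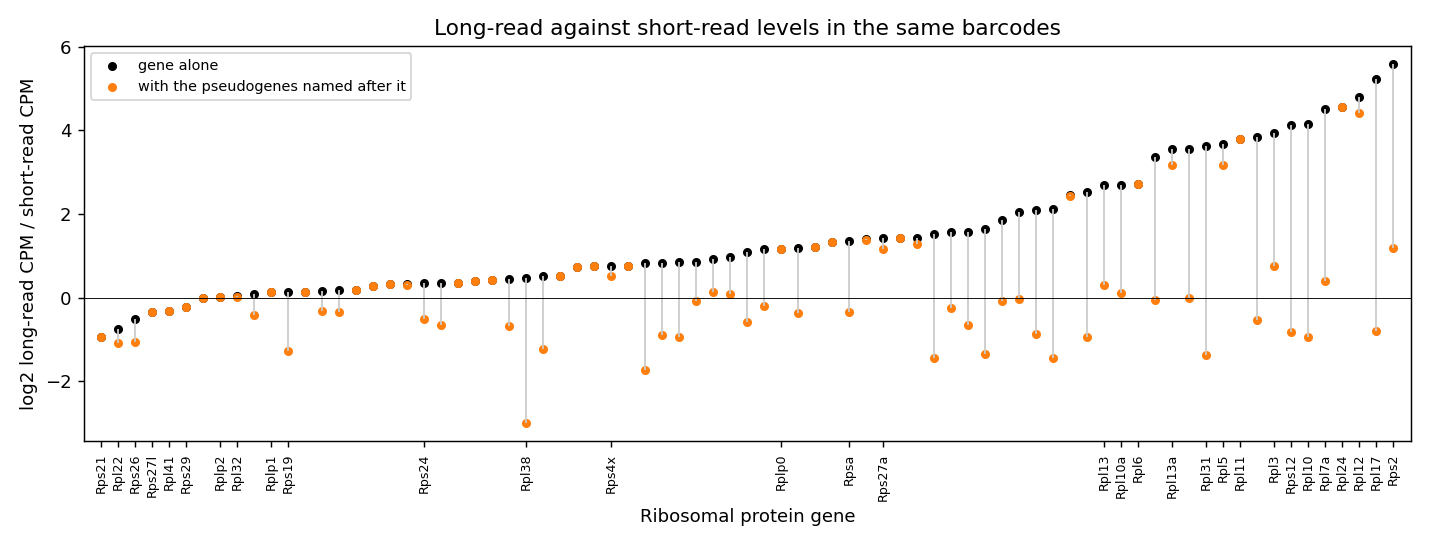
Long-read against short-read levels of the members in the same barcodes of the 10% aliquot, as the log2 ratio of CPM with every gene in the totals, for the gene alone (black) and with the UMIs of the pseudogenes named after it added (orange), in rising order of the gene alone, with members named in the text labelled. The median log2 ratio is 1.10 without and -0.01 with the pseudogenes. Members without a pseudogene so named, such as Rpl24 (23.6-fold in both), do not move by construction.

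The short-read levels of the same 220 barcodes were also compared between the aliquots. Of 79 members with at least 20 CPM, 11 were at least 1.5-fold higher in the 10% aliquot and 1 was lower. The share of all genes past this limit was not computed, so the counts cannot be called particular to the members. Rpl32l was the farthest apart, at 913 CPM in the 10% and 160 CPM in the 90% aliquot. Others were Rps27 at 995 and 344 CPM, Rpl37a (2.89-fold), Rpl36a (2.68-fold), Rps16 (2.15-fold), Rpl37 (2.05-fold), Rpl27 (1.94-fold), Rps29 at 1211 and 642 CPM, Rpl35a at 554 and 327 CPM, and Rps7 (1.56-fold). Rpl24 was lower, at 92.7 and 168 CPM. The same barcodes, with matching profiles, stand on both sides, so these gaps are not read as differences between cells. Ratios of low to deep barcodes were therefore taken within an aliquot.

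**Figure D4:**
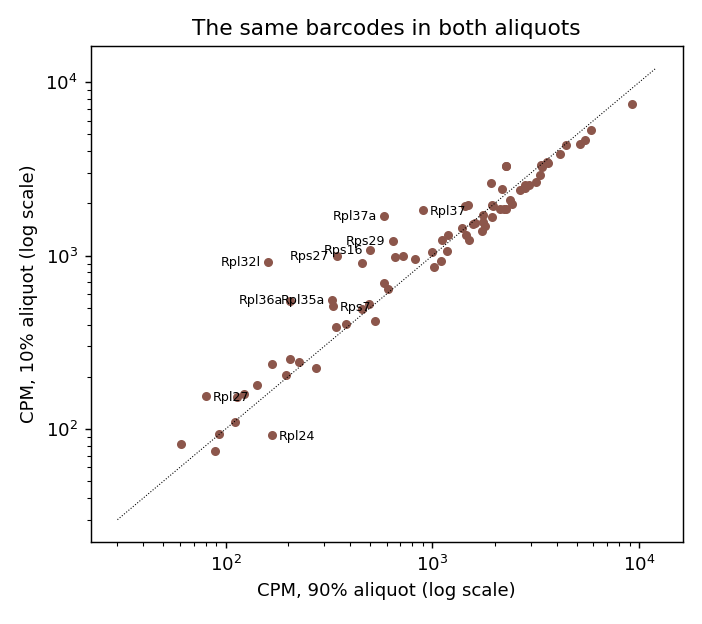
Short-read CPM of each member over the same 220 barcodes in the 10% and the 90% aliquot, on log axes. Most members lie on the line of equal levels, 11 lie at least 1.5-fold above it on the side of the 10% aliquot, led by Rpl32l (913 and 160 CPM), and Rpl24 lies below it (92.7 and 168 CPM). Other genes were not compared in this way.

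In the long reads the members had 458 isoforms with a UMI in low or deep barcodes, 171 of them under a reference transcript name, with a median of 5 isoforms per member. The leading isoform held a median of 88.8% of a member's UMIs. Isoforms with a reference name held 60.2% of the UMIs, and in 25 members the leading isoform had none. Of UMIs on isoforms without a name, at least 22.5% in low and 20.9% in deep barcodes had the splice junctions of a reference transcript and differed from it at the ends alone, beside at least 11.5% and 12.6% in other genes. These are lower bounds, since the exons were known for 38.4% and 35.8% of such UMIs of members and for 37.4% and 37.6% of those of other genes.

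Isoform shares were steady between low and deep barcodes in nearly every member. An isoform moved by at least 20 percentage points in 1 of 77 members (1.3%), Rps24, beside 17.9% of 3107 genes, and by at least 10 points in 5 (6.49%), beside 55.1%. The largest shift within a gene had a median of 1.62 points over members and 10.9 points over all genes, which include many with fewer UMIs.

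Rps24, a small subunit protein gene, ends in a set of very short exons that are used or skipped. A 20-base exon at chr14:24495430-24495449 and an 18-base exon at chr14:24494052-24494069, both on the plus strand of GRCm38, lie between the fourth exon of its leading isoform and the last exon. They are printed with the exon in capitals and 5 spliced bases of the neighbouring exons on each side, as in a Gencode transcript that holds both.
18-base exon: aaaagAAATGAAATACCTAGCAGtgagt
20-base exon: agcagTGAGTGGAGATTGGATACAGccaaa
Of 4953 Rps24 UMIs in low barcodes, 86.9% (exact binomial interval 85.9 to 87.8) lay on isoforms with the 20-base exon alone, beside 63.2% (62.4 to 64.0) of 14586 in deep barcodes, a gap of 23.6 points (Newcombe interval 22.4 to 24.8). Isoforms that reached the last exon with neither short exon held 7.47% and 26.7%, a gap of -19.2 points. Both exons together were on 3.07% and 7.05%, the 18-base exon alone on 1.09% and 1.57%, and other forms on 1.49% and 1.45%. Low barcodes had more of the 20-base form and fewer of the forms that skip both exons. The form that skips both was spread over 3 isoforms, each of which was lower in low barcodes, with gaps of -6.24, -6.37 and -6.62 points, so that no single isoform shows its full size. The leading isoform, which holds the 20-base exon, was at 76.1% and 55.3%, a shift of 20.8 points that was 19.8 points when low barcodes with UMIs of dividing cells were kept. The gene's total was within 1.5-fold, at 3028 and 2463 CPM in short reads of the 10% aliquot and 3583 and 3152 CPM in long reads.

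**Figure D5:**
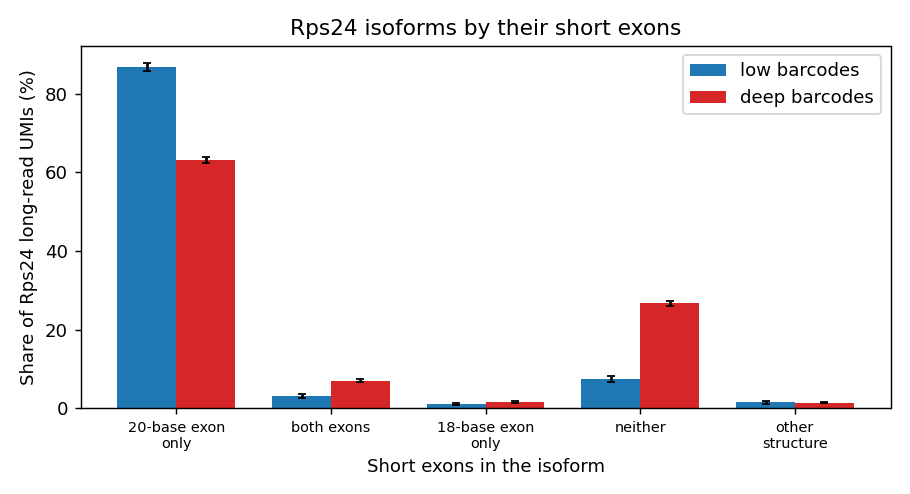
Share of Rps24 long-read UMIs, in percent, on isoforms with the 20-base exon alone, both short exons, the 18-base exon alone, neither, or another form, in low and deep barcodes of the 10% aliquot, with exact binomial intervals as bars. The 20-base form is at 86.9% in low and 63.2% in deep barcodes, and the form with neither exon at 7.47% and 26.7%.

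The next members by shift were smaller and of different kinds. Rpl22, whose protein also binds viral RNA, had 82.8% of its UMIs on Rpl22-201 in low and 92.8% in deep barcodes, and 14.0% and 5.19% on Rpl22-204, which has the same junctions and a longer 3′ end. Rpl38, a large subunit protein tied to the translation of Hox mRNAs, had 72.7% and 67.1% on Rpl38-201 and 10.2% and 20.2% on Rpl38-202, which starts farther downstream. Rpl5 had 50.8% and 61.1% on Rpl5-201, and 43.3% and 35.2% on an isoform that lacks its second exon and has no reference name. Rpl10a had 72.9% and 83.3% on Rpl10a-212, with the rest spread over many isoforms. Rpl7a had 83.9% and 92.5% on Rpl7a-201, and most of the rest, 11.3% and 5.97%, on 1 isoform without a reference name. Rpl35a had 86.5% and 80.2% on Rpl35a-201, and Rpl31 33.3% and 27.5% on an isoform without a reference name.

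By the type of their reference transcripts, isoforms with a retained intron held 1.25% of the members' UMIs in low and 1.01% in deep barcodes, and that share was higher in low barcodes in 18 of 21 members with such UMIs. Examples are Rpl14-202, at 2.61% and 1.60% of Rpl14, and Rpl13-202, at 1.01% and 0.324% of Rpl13. In other genes the shares were 0.764% and 0.359%, also higher in low barcodes. Their genes were not counted by direction, so the 18 of 21 has no background beside it. Isoforms without a reference name held 39.8% of the members' UMIs in both sets, and 67.2% and 59.5% of those of other genes.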

How the data were processed

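The authors deposited counts: short-read UMI counts per gene and barcode for both aliquots, made with scPipe, and long-read UMI counts per isoform and barcode for the 10% aliquot, made with FLAMES after alignment to the mouse genome (GRCm38) with minimap2 2.17. The submitters' processing notes also name Cell Ranger 1.3. The long reads held 0 UMIs of mitochondrially encoded genes, and that list was compared in short reads alone. Members were taken by symbol of the Ensembl identifier. The members and all lists were chosen with earlier results of these data known. UMIs were summed over low and over deep barcodes of each aliquot and divided by the total to give CPM. Genes with at least 50 UMIs were compared, with a limit of 1.5-fold between sets, 2-fold between methods and 20 points for isoform shares (isoforms over 15 UMIs). Intervals are 95%: exact binomial for shares, conditional binomial for ratios, Newcombe for differences. PCR copies were collapsed by UMI, and the intervals cover counting error only. With 1 sample per group no test was made. Members were named by rule: most UMIs, the ends of each comparison, the largest isoform shifts, paralogs, Rps24, the stalk, the 5S particle, Rpsa and Rps27a; others named were past or just under a limit, of opposite sign between methods or examples of an isoform type, and were chosen after their values were seen. Doublets were sought with the Scrublet method of scanpy 1.11.5, which marked 4 of 330 barcodes in the 10% aliquot and 4 of 2420 in the 90% aliquot. That is too few to rely on, so all barcodes stayed. Python 3.11.15, numpy 2.4.6, pandas 2.3.3 and scipy 1.17.1 were used. The code was tested on simulated data. A few genes enter the counts and sums and are not reported here one by one.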

Additional observations from a re-analysis of the deposited data

How the results depend on the processing

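Of 111 recomputed values that answer a comparison, 86 stayed within their counting interval or within 1.5 times and 25 moved, with 0 reversed. Counts, isoform shares and isoforms per gene cannot change sign, so among these values only the gaps in share could reverse. Of the values of single members 480 stayed, 97 moved and 2 reversed. Low against deep ratios of members under the 1.5-fold limit were not counted as reversed when their sign changed. The cause of each move was not tested unless the setting's construction gives it. The gap in the members' share of short-read UMIs, low minus deep, was 0.506 points in the 10% and 0.472 points in the 90% aliquot with shared barcodes, which the values of that aliquot here include (0.455 without them). It became 0.634 and 0.540 with low barcodes of 5000 to 15000 UMIs, 0.287 and 0.372 with barcodes of dividing cells kept, 0.428 and 0.414 with deep barcodes of at least 40000 UMIs, 2.37 and 2.20 with pseudogenes added, and 0.587 in the 90% aliquot with low barcodes that hold a quiescence marker. At 2-fold, 3 members passed in each aliquot. The gap in share between long and short reads, 12.7 points in low, 12.6 in deep and 12.7 in both, became 12.9 in low barcodes with dividing cells kept, 12.8 in deep and 12.8 in both at 40000 UMIs, and 4.34, 4.04 and 4.12 within genes that both tables list, a setting that leaves most pseudogenes out. At 1.5-fold, 49 members differed between methods. Shares of all genes were not computed at this limit between methods or at 2-fold between low and deep barcodes. With reference-named isoforms alone the leading isoform's median share was 94.97%, with 2.41 isoforms per gene in place of 5.87, and over all barcodes 59.98% of UMIs lay on named isoforms. The count of members with a 20-point shift was 0 with dividing cells kept (Rps24 then at 19.8 points), 5 at 10 points, 0 at 30 points and 3 with reference-named isoforms alone. Reversed were Rpl13a, low against deep, at 0.23 with long reads, and Rpl17, long against short, at -0.79 with pseudogenes added. The settings without shared barcodes, without Rpl41, with long reads in place of short reads, with pseudogenes added to single members, at 1000 UMIs and with every gene in the totals were chosen after seeing the data. No paired analysis was possible because each group has 1 sample. Depth limits Rps4l, Rpl3l and Rpl39l, and short-read values of members near 100 CPM such as Rpl5.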
